A study of Mus musculus with 6 samples.

Results

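The 53 genes described here encode the machinery that copies DNA and the regulators that admit a cell from G1 into S phase. They were taken from a written list by gene symbol, matched to the deposited gene IDs without their version, and all 53 were among the 15452 genes of the table. All 53 also passed the filter on low counts. Messenger RNA was sequenced from cultured mouse Th17 cells, a CD4+ T helper type known for making interleukin 17, which were grown from naive CD4+ T cells of spleen and lymph node. The cells were cultured for 3 days with plate-bound antibody to CD3 (5 µg/mL), antibodies to CD28 (1 µg/mL) and to interferon γ (5 µg/mL), IL-6 (30 ng/mL) and TGFβ (2 ng/mL). The 3 WT libraries came from mice with floxed PDH alleles (PDHfl/fl) and no Cre, and the 3 knockout libraries from PDHfl/fl mice that also carried CD4 Cre, so both groups carry the floxed alleles and only the knockout carries Cre. PDH is read here as pyruvate dehydrogenase, which makes acetyl-CoA from pyruvate in mitochondria, although the titles of the libraries spell it PHD. CD4 Cre acts in T cells from their development in the thymus onwards, and an effect of Cre itself cannot be told apart from that of the deletion. The labels do not say whether the 3 libraries of a group came from separate animals, so p-values reflect only how far these libraries differ, a spread that may be technical.

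Total counts ran from 33802154 to 40407124 per library. As a check of the labels, the PDH subunit gene Pdha1 was at 256, 236 and 251 CPM in WT and 198, 193 and 186 CPM in knockout, the subunit gene Dlat at 84.0, 83.3 and 78.1 CPM in WT and 50.1, 50.7 and 52.2 CPM in knockout and Pdhb at 89.9, 89.8 and 83.8 CPM in WT and 79.1, 77.4 and 81.8 CPM in knockout. Which subunit gene was floxed is not named, and a count for a whole gene cannot show that an exon is lost. All 6 T cell markers (Cd3d, Cd3e, Cd3g, Cd4, Cd5, Trac) and 4 Th17 markers (Il17a, Il17f, Il23r, Ccr6) were in the table. The T cell markers summed to between 1783 and 1850.3 CPM in WT and 1351 to 1534 CPM in knockout, and the Th17 markers to 712 to 959 and 361 to 524 CPM. The Th17 markers went both ways: Il17a, Il17f and Il23r fell (-1.31, -1.19 and -2.28) and Ccr6 rose (0.83 ± 0.09, adjusted p = 0.000132). The 5 B cell markers (Ms4a1, Cd79a, Cd79b, Pax5, Cd22) summed to 2.74, 16.3 and 2.30 CPM in WT and 2.08, 32.3 and 54.9 CPM in knockout, so WT replicate 2 and knockout replicates 2 and 3 stood apart from the other 3 libraries. Member calls that were lost or gained without these 3 libraries are listed at the end. Whether any of these marker differences had a part in the results was not tested.

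In G1, the origin recognition complex (ORC) with CDC6 and CDT1 loads the ring of MCM2 to MCM7, the replicative helicase, onto origins of replication, and geminin holds CDT1 in check afterwards. The kinases CDC7 and CDK2 then switch the helicase on together with CDC45 and the GINS complex, and DNA polymerases α, δ and ε copy the strands with the sliding clamp PCNA, its loader RFC and the single-strand binding complex RPA. Entry into S phase is set by D-type cyclins with CDK4 and CDK6 and by E-type cyclins with CDK2, which phosphorylate RB and free the E2F factors that drive many of these genes. Resting T cells hold most of this machinery low and raise it once the T cell receptor and CD28 are engaged, before several rapid divisions.

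Most of these genes changed little in knockout cells, and the larger changes went in both directions. Of 53 members, 20 fell, 7 rose and 26 were not called (edgeR quasi-likelihood test, Benjamini-Hochberg adjusted p under 0.05 over all 15361 genes tested). That is 50.9% of members called, against 47.6% of all tested genes, a share near the background. By direction, 37.7% of members fell against 24.5% of all genes, and 13.2% rose against 23.1%. The median log2 fold change of knockout over WT was -0.13 over the members, with the middle of the range running from -0.27 to 0.014 (quartiles), against 0.0087 over all genes. In 33 of 53 members the WT and knockout values did not overlap, where 58.2% of all genes did not. The log2 fold change was below 0 in 39 members, against 49.2% of all genes. It was smaller than 0.25 in size in 31 of the 53, and 7 members were called with a change of at least 0.5, a size that 25.9% of all genes reached. The scaling of the libraries bears on changes of this size. With upper-quartile factors 14 members fell (26.4%, background 19.1%) and 10 rose (18.9%, background 28.5%). The median became -0.049 over the members and 0.088 over all genes, so both moved up. Of all called genes 60.0% were then higher in place of 48.5%. Without WT replicate 2 and knockout replicates 2 and 3, the libraries with raised B cell markers, 10 members fell and 8 rose. That is 18.9% and 15.1% of members, against 18.6% and 15.9% of all genes tested in that setting. The median was then -0.031 over the members and 0.0043 over all genes, and 31 members were below 0. Knockout replicate 1 is the only knockout library there. WT replicate 2 had the highest median member of the WT libraries, and knockout replicates 2 and 3 the lowest of the knockout libraries. Leaving these out narrows the difference by itself, so whether the lean depends on them cannot be read from this fit. In whole cultures, fewer cells in S phase and less RNA per cell cannot be told apart.

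Against a stricter null of a 1.2-fold change, 2 members passed as higher and 7 as lower, where 12.1% of all genes passed as lower and 13.8% as higher. Lower were Rfc4, Tk1, Ccne1, Orc1, Rpa3, Gins2 and Gmnn, and higher were Cdk6 and Ccnd2. The 7 lower genes come from 6 different steps: licensing, helicase activation, clamp loading, single-strand binding, nucleotide supply and the G1/S cyclins. The plot of all members by role shows these steps as groups in which some genes were called and others were not. An uncalled gene may have changed as much as a called one, as with Orc2 (-0.26, not called) and Gins4 (-0.20, called).

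**Figure D1:**
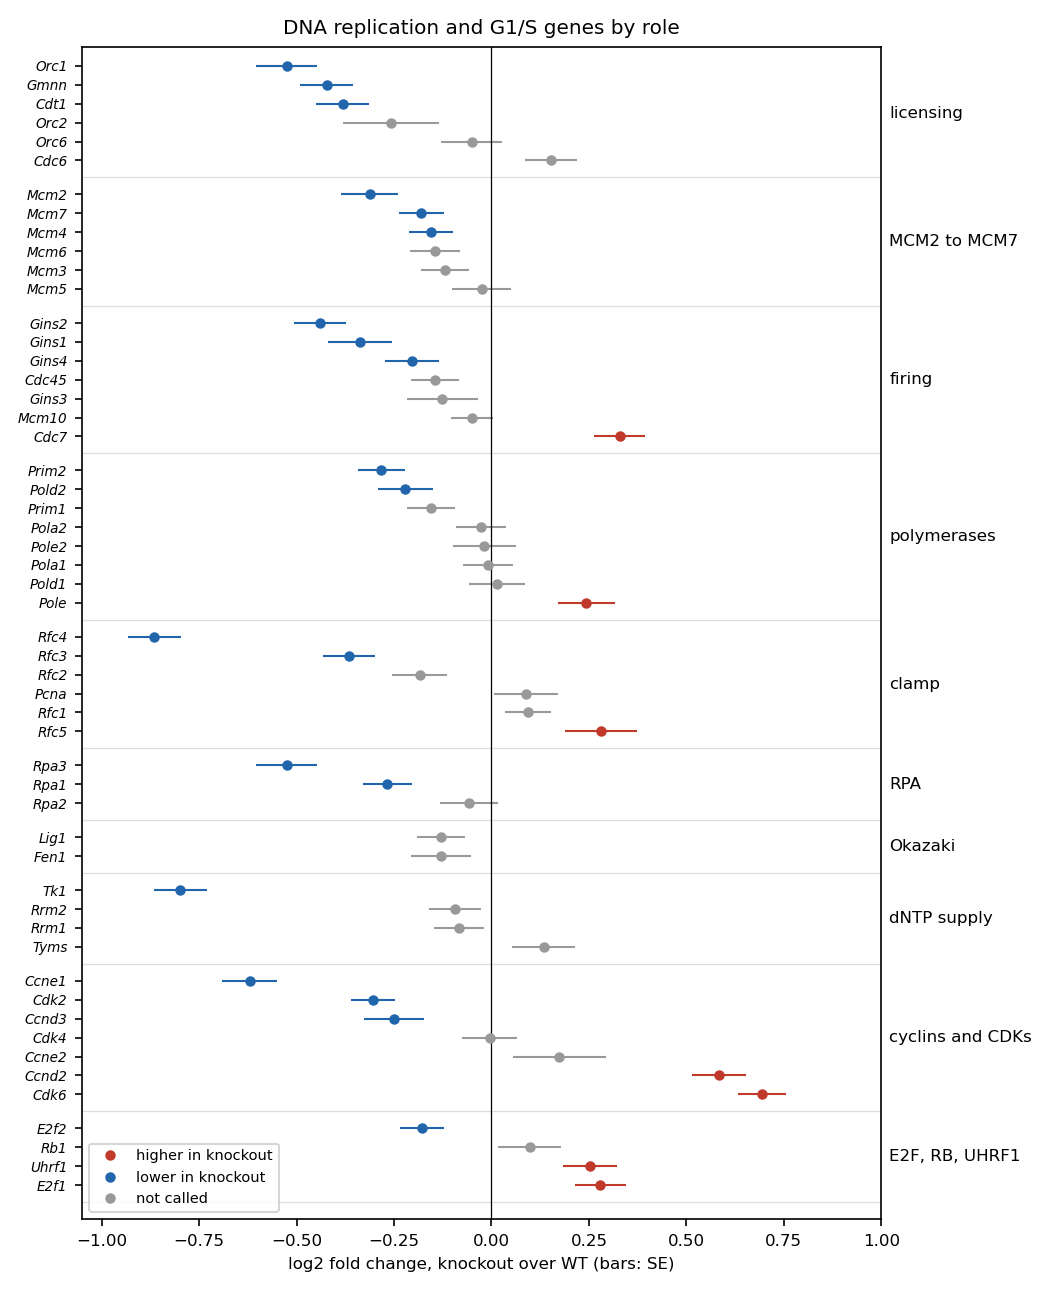
Log2 fold change of knockout over WT (horizontal axis, bars are the standard error from the edgeR fit, n = 3 libraries per group) for the 53 members, grouped by role. Rfc4 (-0.86) and Tk1 (-0.80) lie farthest to the left and Cdk6 (0.69) and Ccnd2 (0.58) farthest to the right, and 31 members lie within 0.25 of 0, where 8 of the uncalled members change sign with upper-quartile factors.

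As levels, the members spanned a wide range. Per kilobase of exon, the highest levels in WT were those of Pcna (235 ± 24.8 CPM per kb), Rrm2 (154 ± 8.38), Mcm3 (122 ± 2.05), Mcm6 (111 ± 1.74) and Mcm4 (109 ± 2.10). Pcna stood above Rrm2, and Rrm2 above Mcm3, by more than their SDs, while Mcm6 and Mcm4 did not differ by more than theirs. The lowest were Gins3 (8.28 CPM per kb) and Prim2 (9.75 CPM per kb). In knockout Pcna was again highest at 249.5 CPM per kb. These levels use the total exon length of each gene in GENCODE M21, which counts exons that Th17 cells may not use. Summed over all 53 genes, the level was 9757, 10144 and 9539 CPM in WT and 10123, 9679 and 9764 CPM in knockout, and the groups overlapped. Abundant genes weigh most in this sum. It holds the rise of Ccnd2, from a mean of 897 CPM in WT to 1345 CPM in knockout, while 39 members had a log2 fold change below 0.

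Many genes of this kind carry binding sites for E2F factors close to their start. RefSeq promoter windows (GRCm38.p6) matched 42 of the 53 members by symbol, with 52 start sites. An E2F motif, searched on both strands as TTTCCCGC, TTTCGCGC, TTTGCCGC or TTTGGCGC in the 250 bases before the start, was found in 10 of the 52 windows (19.2%, Wilson 95% interval 10.8 to 31.9%), against 3.18% of 13258 windows of the other tested genes and 1.86% of all 32851. Matches on opposite strands overlap at some sites, as in Mcm6. Of the 10 genes with a motif, 4 fell (Orc1, Rfc3, Cdk2, Mcm7), 1 rose (Uhrf1) and 5 (Cdc6, Gins3, Mcm5, Mcm6, Pola1) did not pass, and their median log2 fold change was -0.14. Of the 32 without one, 10 fell, 4 rose and 18 were not called, and the median was -0.11. Both sets thus held calls in both directions, with Uhrf1 the only gene with the motif that rose. A gene counts as having the motif if any of its windows does, and Mcm7 and Uhrf1 each also have a window without it. The motif TTTGAA, found in promoters of mitotic genes, was in 7 of 52 windows (13.5%, against 11.1% for the other tested genes and 16.0% of all windows), and CCAAT in 29 of 52 (55.8%, against 35.2% for the other tested genes and 33.8% of all windows). A match to these letters is not evidence of binding.

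The 120 bases before the start are shown for the 4 members with the motif in that window, of which Orc1 and Rfc3 fell and Mcm6 and Gins3 were not called, and for Rfc4 and Cdk6, the members with the steepest fall and rise, which hold no such motif in 250 bases. Letters in capitals are the E2F motif on either strand. The positions are chr4:108579334-108579453, plus strand for Orc1, chr5:151651209-151651328, minus strand for Rfc3, chr1:128359706-128359825, minus strand for Mcm6, chr8:95633439-95633558, plus strand for Gins3, chr16:23127731-23127850, minus strand for Rfc4 and chr5:3343773-3343892, plus strand for Cdk6, each written 5′ to 3′ in the direction of the gene.
Orc1: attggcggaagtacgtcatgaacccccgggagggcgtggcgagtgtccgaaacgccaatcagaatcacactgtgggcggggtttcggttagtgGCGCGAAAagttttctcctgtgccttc
Rfc3: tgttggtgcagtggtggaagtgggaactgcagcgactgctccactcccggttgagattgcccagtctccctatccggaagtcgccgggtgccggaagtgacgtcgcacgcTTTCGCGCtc
Mcm6: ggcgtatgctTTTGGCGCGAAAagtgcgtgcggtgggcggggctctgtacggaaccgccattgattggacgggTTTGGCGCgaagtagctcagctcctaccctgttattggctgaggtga
Gins3: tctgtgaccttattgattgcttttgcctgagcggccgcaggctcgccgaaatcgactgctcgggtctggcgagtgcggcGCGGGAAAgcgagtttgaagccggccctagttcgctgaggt
Rfc4: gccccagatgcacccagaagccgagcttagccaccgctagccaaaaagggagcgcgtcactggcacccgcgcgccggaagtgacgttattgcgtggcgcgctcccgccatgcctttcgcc
Cdk6: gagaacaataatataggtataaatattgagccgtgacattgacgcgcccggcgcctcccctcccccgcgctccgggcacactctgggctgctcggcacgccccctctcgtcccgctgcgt
In Orc1 the motif ends 20 bases and in Rfc3 3 bases before the annotated start, and in Mcm6, with 3 matches, and Gins3 the nearest ends 40 and 34 bases before it.

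Among the licensing genes, 3 of 6 fell and the other 3 were not called. Orc1 (ENSMUSG00000028587.19), the largest ORC subunit and the one whose amount varies through the cell cycle, was at 55.3, 55.0 and 54.8 CPM in WT and 42.7, 36.0 and 36.0 CPM in knockout. The WT values hardly differed (SD 0.225 CPM, n = 3), and each knockout value was lower (-0.53 ± 0.08, adjusted p = 0.000553). Cdt1 (ENSMUSG00000006585.4), which brings the MCM ring to ORC, was at 89.6, 90.0 and 78.5 CPM in WT and 66.6, 63.6 and 67.8 CPM in knockout (-0.38 ± 0.07, adjusted p = 0.00158). Gmnn (ENSMUSG00000006715.12), which encodes geminin, the inhibitor of CDT1, was at 83.5, 82.5 and 84.5 CPM in WT and 68.3, 59.6 and 58.9 CPM in knockout (-0.42 ± 0.07, adjusted p = 0.000935). In both, the highest knockout value was under the lowest WT value. The ratio of Cdt1 to its inhibitor within each library, on the log2 scale, was 0.10, 0.12 and -0.10 in WT and -0.037, 0.092 and 0.20 in knockout, and the groups overlapped (difference 0.046, exact two-sided permutation p = 0.7). Not called were Orc6 (-0.051 ± 0.08), Orc2 (-0.26 ± 0.12, with WT replicate 2 at 106 CPM against 82.9 and 76.6 CPM in the other WT libraries) and Cdc6, the ATPase that helps load the ring (0.15 ± 0.07). Orc2 passed without WT replicate 3 (-0.35, adjusted p = 0.0409), and Cdc6 passed as higher without WT replicate 2 (0.20, adjusted p = 0.0339) and with upper-quartile factors (0.23).

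The 6 genes of the MCM ring were among the most abundant members and changed by small amounts, 3 of them past the test. Mcm2 (ENSMUSG00000002870.9) fell most, from 291 ± 22.9 to 234 ± 12.9 CPM (-0.31 ± 0.07, adjusted p = 0.00647), with library values of 297, 310.2 and 266 CPM in WT and 249, 224 and 230.3 CPM in knockout. Mcm7 at 343, 348 and 321 CPM in WT and 302, 294 and 298 CPM in knockout (-0.18 ± 0.06) and Mcm4 at 395, 382 and 395 CPM in WT and 361, 346 and 345 CPM in knockout (-0.15 ± 0.06) also passed (adjusted p = 0.0285 and 0.0443). These 2 calls depended on single libraries and on the scaling: Mcm7 was lost without WT replicate 1 or 2 or knockout replicate 2 or 3 (adjusted p from 0.0683 to 0.108), and Mcm4 without WT replicate 1 or 3 or knockout replicate 2 or 3 (adjusted p from 0.0893 to 0.142). With upper-quartile factors, library totals and the filter of 50 counts, neither passed (adjusted p = 0.152, 0.112 and 0.0619 for Mcm7, and adjusted p = 0.296, 0.192 and 0.112 for Mcm4). Mcm3 (-0.12 ± 0.06), Mcm6 (-0.15 ± 0.06) and Mcm5 (-0.025 ± 0.08) were not called, and Mcm6 passed without knockout replicate 1 (-0.20, adjusted p = 0.0362). Mcm5 was at 369.7, 404 and 336 CPM in WT and 376, 349.8 and 364 CPM in knockout, its groups overlapped, and its sign changed with upper-quartile factors, library totals and the filter of 50 counts. The ring as a sum was at 2365, 2429 and 2289.8 CPM in WT and 2234, 2069 and 2097 CPM in knockout, so that knockout held 90.3% of the WT mean and every knockout library was under every WT library.

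Helicase activation genes went both ways, with 3 of 7 lower and 1 higher. Of the 4 GINS subunits, which travel with the helicase as a single complex, 3 fell: Gins2 (ENSMUSG00000031821.12) at 56.1, 59.5 and 54.4 CPM in WT and 44.4, 40.5 and 40.5 CPM in knockout (-0.44 ± 0.07, adjusted p = 0.000667), Gins1 at 23.5, 24.0 and 24.7 CPM in WT and 19.3, 20.4 and 17.4 CPM in knockout (-0.34 ± 0.08, adjusted p = 0.00806), and Gins4 (-0.20 ± 0.07, adjusted p = 0.0345). Gins3 was at 21.7, 22.7 and 23.0 CPM in WT and 22.2, 21.4 and 18.1 CPM in knockout, its groups overlapped and it was not called (-0.13 ± 0.09). The Gins4 call was lost without WT replicate 1 or 2 or knockout replicate 2 or 3 (adjusted p from 0.0814 to 0.127) and with upper-quartile factors, library totals and the filter of 50 counts (adjusted p = 0.138, 0.0902 and 0.0695). Cdc7 (ENSMUSG00000029283.18), the kinase that phosphorylates the MCM ring, went the other way. It was at 49.0, 47.8 and 51.1 CPM in WT and 66.1, 61.0 and 58.5 CPM in knockout, every knockout library above every WT library (0.33 ± 0.07, adjusted p = 0.0029). Cdc45 (-0.14 ± 0.06) and Mcm10 (-0.051 ± 0.05), which join the helicase as it starts, were not called. Mcm10 was at 107, 109.9 and 109 CPM in WT and 108, 102 and 104 CPM in knockout, with overlapping groups.

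Of the 8 primase and polymerase genes, 2 fell and 1 rose. Their summed level was 895, 882 and 886 CPM in WT and 919, 837 and 899 CPM in knockout, with overlapping groups and a log2 ratio of -0.0042, which turned positive with upper-quartile factors and library totals. Pola1, the catalytic subunit of polymerase α, was at 128, 139.6 and 134 CPM in WT and 141, 131 and 126 CPM in knockout, and Pold1, that of polymerase δ, at 204, 185 and 193 CPM in WT and 204, 179 and 206 CPM in knockout. Neither they nor Pola2, Pole2 and the primase gene Prim1 were called. Prim2, the larger primase subunit, fell (60.1, 58.2 and 55.4 CPM in WT and 48.5, 46.2 and 48.2 CPM in knockout, -0.28 ± 0.06, adjusted p = 0.00407). Pold2, an accessory subunit of polymerase δ, fell (88.5, 82.4 and 76.3 CPM in WT and 71.0, 66.9 and 74.2 CPM in knockout, -0.22 ± 0.07, adjusted p = 0.0276), a call lost without WT replicate 1 or knockout replicate 1 or 2 (adjusted p from 0.0562 to 0.129) and with upper-quartile factors, library totals and the filter of 50 counts (adjusted p = 0.123, 0.0965 and 0.0608). Pole (ENSMUSG00000007080.15), the catalytic subunit of the leading-strand polymerase ε, rose (170.2, 159.5 and 183 CPM in WT and 207, 187 and 213 CPM in knockout, 0.24 ± 0.07, adjusted p = 0.0203), and that call was lost without WT replicate 1 or 2 or knockout replicate 1 or 3 (adjusted p from 0.0525 to 0.0791). The log2 ratio of Pold1 to Pole within a library depends on the scaling only through a pseudocount of 1 CPM and was 0.26, 0.21 and 0.078 in WT and -0.018, -0.065 and -0.052 in knockout. The groups did not overlap, with a difference of -0.23 (exact two-sided permutation p = 0.1, the smallest that 3 against 3 libraries allow, and 0.15 adjusted over 6 ratios).

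Of the 6 clamp and clamp loader genes, 2 fell and 1 rose. RFC is a ring of a large and several small subunits, and here Rfc4 (ENSMUSG00000022881.16) had the steepest fall of all members while Rfc5 (ENSMUSG00000029363.15) rose. Rfc4 was at 60.7, 60.0 and 53.9 CPM in WT and 31.8, 32.4 and 31.7 CPM in knockout, a log2 fold change of -0.86 ± 0.07 (adjusted p = 2.43e-05) with every knockout library far under the WT range. Rfc3 fell as well (62.7, 59.3 and 62.8 CPM in WT and 50.9, 47.6 and 45.0 CPM in knockout, -0.37 ± 0.07, adjusted p = 0.00164). Rfc5 was at 68.2, 83.5 and 63.9 CPM in WT and 88.7, 85.5 and 87.8 CPM in knockout (0.28 ± 0.09, adjusted p = 0.0307). Among WT libraries, replicate 2 reached 83.5 CPM, close to the lowest knockout value, and the Rfc5 call was lost without any 1 library except WT replicate 2 (adjusted p from 0.0673 to 0.11). Rfc1, the large subunit (0.093 ± 0.06), and Rfc2 (-0.18 ± 0.07) were not called. Rfc1 passed as higher with upper-quartile factors (0.17), and Rfc2 passed as lower without WT replicate 3 or knockout replicate 3 (-0.24 and -0.23). Pcna (ENSMUSG00000027342.15), the clamp itself and a common mark of proliferating cells, was at 549, 628 and 512 CPM in WT and 625, 599.8 and 572 CPM in knockout, its groups overlapped and it was not called (0.089 ± 0.08, adjusted p = 0.396).

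Of the RPA complex, which coats single-stranded DNA, the small subunit gene Rpa3 (ENSMUSG00000012483.5) fell (42.5, 45.7 and 38.6 CPM in WT and 28.4, 30.6 and 29.2 CPM in knockout, -0.52 ± 0.08, adjusted p = 0.000577). The large subunit gene Rpa1 fell less (283, 308 and 283 CPM in WT and 255, 238 and 233 CPM in knockout, -0.27 ± 0.06, adjusted p = 0.00701). Rpa2, the subunit between them, was at 77.1, 83.6 and 73.2 CPM in WT and 80.5, 75.0 and 69.4 CPM in knockout with overlapping groups (-0.057 ± 0.07, adjusted p = 0.557). The Okazaki fragment enzymes Fen1, a flap nuclease, and Lig1, the DNA ligase that seals the fragments, were not called (-0.13 ± 0.08 and -0.13 ± 0.06). Fen1 was at 131, 146 and 118 CPM in WT and 122, 119.7 and 119.7 CPM in knockout, and Lig1 at 279.9, 267 and 274 CPM in WT and 266, 237 and 247 CPM in knockout. Each passed as lower when 1 library was left out, Fen1 without WT replicate 3 (adjusted p = 0.034) and Lig1 without knockout replicate 1 (adjusted p = 0.0486).

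Among the enzymes that supply deoxynucleotides, the salvage enzyme moved and the synthesis enzymes did not pass the test. Tk1 (ENSMUSG00000025574.14), thymidine kinase, which recycles thymidine in dividing cells, was at 108, 111 and 102 CPM in WT and 65.2, 56.9 and 62.3 CPM in knockout. The groups were far apart (-0.80 ± 0.07, adjusted p = 3.55e-05), and over all alternatives the log2 fold change ran from -0.85 to -0.68. Tyms, thymidylate synthase, which makes thymidylate anew, was at 105, 119 and 96.6 CPM in WT and 124, 118 and 110.4 CPM in knockout and was not called (0.13 ± 0.08, adjusted p = 0.196). It passed as higher without WT replicate 2 (0.22, adjusted p = 0.03) and with upper-quartile factors (0.21). Rrm1 and Rrm2, the large and small subunits of ribonucleotide reductase, were at 556, 578 and 569 CPM in WT and 569.7, 527 and 510.0 CPM in knockout and at 404, 451 and 424 CPM in WT and 399.7, 421 and 378 CPM in knockout (-0.084 ± 0.06 and -0.093 ± 0.07, neither called). Their log2 ratio within a library was -0.46, -0.36 and -0.42 in WT and -0.51, -0.32 and -0.43 in knockout, with overlapping groups (difference -0.0079, exact two-sided permutation p = 0.9).

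**Figure D2:**
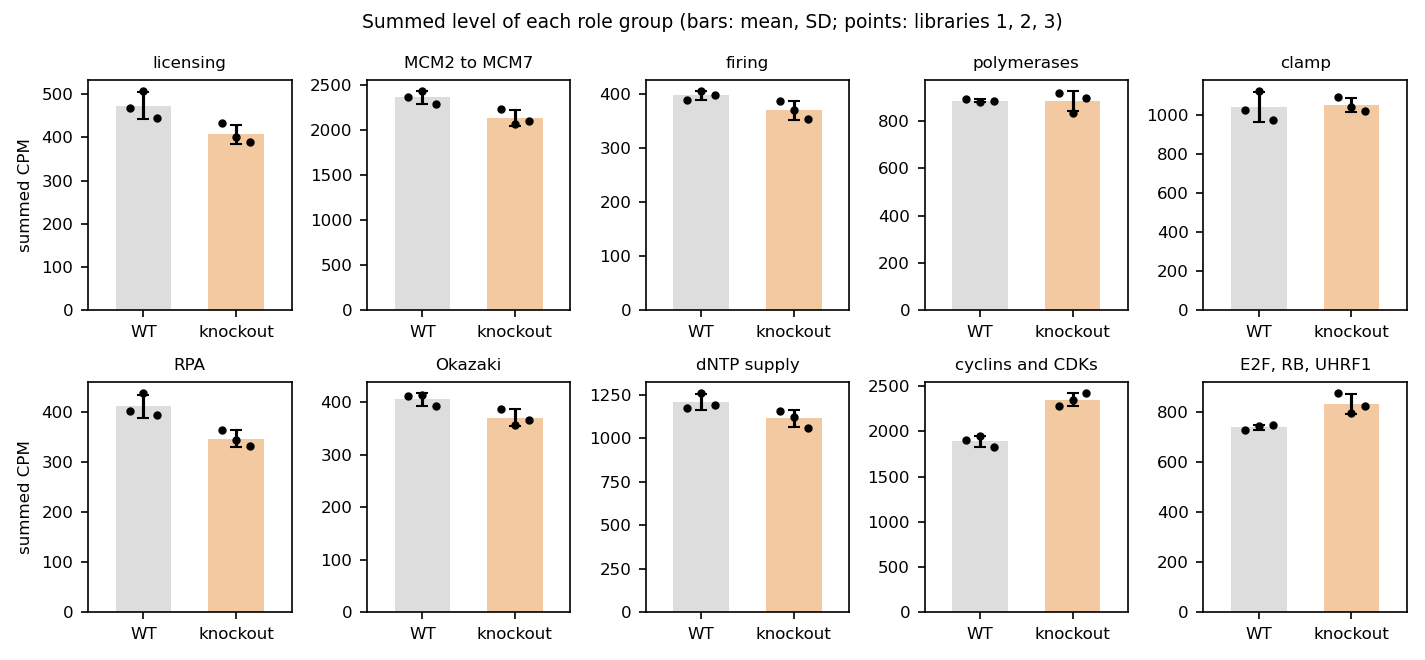
Summed CPM of each role group (vertical axes start at 0), with bars for the mean of 3 libraries, error bars for the SD and points for libraries 1 to 3 from left to right. Knockout lies below WT without overlap for licensing, MCM2 to MCM7, firing, RPA, Okazaki and dNTP supply, overlaps it for the polymerases and the clamp, and lies above it for the cyclins and CDKs, where the sum was 1890.2 ± 62.3 CPM in WT and 2348 ± 73.0 CPM in knockout, and for E2F, RB and UHRF1. Ccnd2 (mean 897 CPM in WT, 1345 CPM in knockout) gives most of the rise for the cyclins and CDKs. Uhrf1 (455 CPM in WT, 543 CPM in knockout) gives most of that for E2F, RB and UHRF1.

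The cyclins and kinases of G1/S held the 2 largest rises among the members, with 2 of 7 genes higher and 3 lower. Cdk6 (ENSMUSG00000040274.12), a kinase partner of D-type cyclins, was at 152, 166 and 149.8 CPM in WT and 262, 244 and 251 CPM in knockout (0.69 ± 0.06, adjusted p = 4.04e-05). Ccnd2 (ENSMUSG00000000184.13), cyclin D2, was at 905, 896 and 892 CPM in WT and 1241, 1374 and 1420.2 CPM in knockout (0.58 ± 0.07, adjusted p = 0.000183). In both genes every knockout library was above every WT library, and neither call was lost under any alternative tried. Cdk4, the other kinase partner, was at 292, 319 and 269 CPM in WT and 297, 292 and 288 CPM in knockout and did not pass (-0.0048 ± 0.07, adjusted p = 0.961). Ccnd3, cyclin D3, fell (327, 323 and 296 CPM in WT and 277, 238 and 279.9 CPM in knockout, -0.25 ± 0.08, adjusted p = 0.0226), a call lost without WT replicate 1 or knockout replicate 2 (adjusted p from 0.0819 to 0.085) and with upper-quartile factors and library totals (adjusted p = 0.0888 and 0.0812). Per kilobase of exon, Cdk6 made up 11.0 ± 0.383% of the combined Cdk4 and Cdk6 level in WT and 16.7 ± 0.396% in knockout, so Cdk4 was the more abundant in both. Ccnd2 made up 72.7 ± 0.974% of the Ccnd2 and Ccnd3 level in WT and 82.5 ± 1.81% in knockout.

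The E-type cyclins, which act with CDK2 at the entry to S phase, also parted. Ccne1 (ENSMUSG00000002068.17) was at 71.4, 74.7 and 63.5 CPM in WT and 45.7, 45.4 and 45.2 CPM in knockout, the knockout values nearly equal (SD 0.238 CPM, n = 3) and all under WT (-0.62 ± 0.07, adjusted p = 0.000145). Ccne2 was at 55.1, 74.7 and 58.5 CPM in WT and 74.1, 74.9 and 63.5 CPM in knockout with overlapping groups (0.17 ± 0.12, adjusted p = 0.26), and passed as higher without WT replicate 2 (0.32, adjusted p = 0.0109). Cdk2 (ENSMUSG00000025358.17) fell (97.7, 93.7 and 95.7 CPM in WT and 78.3, 80.1 and 74.0 CPM in knockout, -0.30 ± 0.06, adjusted p = 0.00195). Within a library the log2 ratio of Ccne1 to Ccne2 was 0.37, -0.0010 and 0.12 in WT and -0.68, -0.71 and -0.48 in knockout, a difference of -0.79. The ratio of Ccnd2 to Ccnd3 differed by 0.83 and that of Cdk4 to Cdk6 by -0.69. None of these 3 ratios overlapped between the groups (exact two-sided permutation p = 0.1 for each, the smallest possible, and 0.15 adjusted over 6 ratios), and they too depend on the scaling only through the pseudocount.

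**Figure D3:**
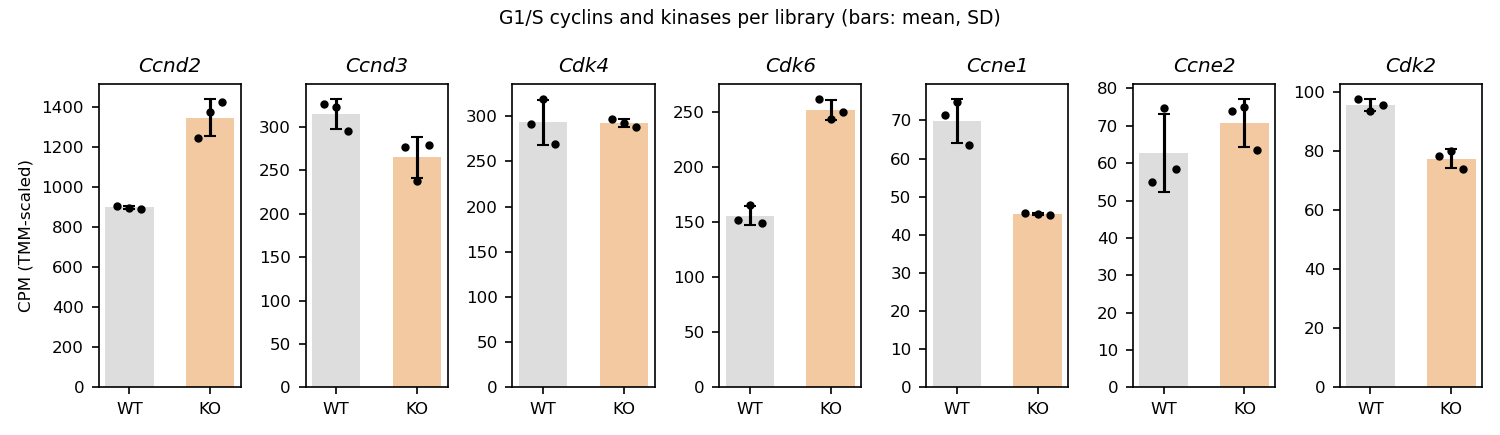
TMM-scaled CPM of the 7 cyclin and kinase genes (each vertical axis starts at 0), with bars for the mean of 3 libraries, error bars for the SD and points for libraries 1 to 3 from left to right. Ccnd2 and Cdk6 lie above WT in every knockout library, Ccnd3, Ccne1 and Cdk2 below it, and Cdk4 and Ccne2 overlap, with Cdk4 changing sign under upper-quartile factors and library totals.

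Of the factors that these kinases act on, E2f1 (ENSMUSG00000027490.18), an activating E2F, rose (34.1, 34.2 and 32.7 CPM in WT and 39.6, 40.3 and 42.8 CPM in knockout, 0.28 ± 0.06, adjusted p = 0.00604), with no overlap. E2f2, a second activating member, fell by a small amount (108, 113 and 106 CPM in WT and 100.2, 94.7 and 94.0 CPM in knockout, -0.18 ± 0.06, adjusted p = 0.0263), and its call was lost without WT replicate 1 or 2 or knockout replicate 2 or 3 (adjusted p from 0.0573 to 0.0881) and with upper-quartile factors, library totals and the filter of 50 counts (adjusted p = 0.146, 0.104 and 0.0628). Rb1, the retinoblastoma protein that restrains E2F, was at 137, 125 and 157 CPM in WT and 146, 151 and 152 CPM in knockout and was not called (0.10 ± 0.08, adjusted p = 0.338). WT replicate 3 held the highest Rb1 value, and without it Rb1 passed as higher (0.19, adjusted p = 0.0385). Uhrf1, which recruits the maintenance DNA methyltransferase to newly copied DNA, rose (448, 469 and 449 CPM in WT and 587, 507 and 534 CPM in knockout, 0.25 ± 0.07, adjusted p = 0.0133), a call lost without WT replicate 1 or knockout replicate 1 (adjusted p from 0.051 to 0.0577).

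Other genes of the pathway, from lists written with earlier results of these data known, are set beside the members. Of 37 further replication genes, 11 fell (29.7%, against 24.5% of all tested genes), 6 rose (16.2%, against 23.1%) and 20 did not pass. Their median log2 fold change was -0.11. Rnaseh2c, a subunit of the ribonuclease that removes ribonucleotides from DNA (-0.82 ± 0.12), Chaf1b, a subunit of the chromatin assembly factor that follows the fork (-0.63 ± 0.07), Donson, a helicase assembly factor (-0.60 ± 0.08), and Asf1b, a histone chaperone (-0.49 ± 0.08), fell. Pole4, an accessory subunit of polymerase ε, rose (46.7, 59.7 and 46.1 CPM in WT and 92.1, 83.6 and 80.8 CPM in knockout, 0.75 ± 0.10). Of 17 genes of the S phase checkpoint and fork protection, 4 rose (23.5%, against 23.1% of all tested genes) and 3 fell (17.6%, against 24.5%). The checkpoint kinases Atr (0.32 ± 0.06) and Chek1 (0.32 ± 0.08) and the recombination mediator Brca2 (0.34 ± 0.09) were higher. Rad9a (-0.38 ± 0.07) and Fanci (-0.26 ± 0.07) were lower.

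The list of other E2F, RB and DREAM factors and G1/S inhibitors had 28 names, of which Lin54, Cdkn2a and Cdkn2b were not analysed here. Of the 25 tested, 3 rose (against 23.1% of all tested genes) and 8 fell (against 24.5%). These 11 called genes are a slightly smaller share of the list than the 47.6% called over all tested genes. The CDK inhibitor genes moved apart. Cdkn1a, which encodes p21 and restrains CDK2, was at 162, 177 and 196 CPM in WT and 259, 376 and 330.0 CPM in knockout (0.85 ± 0.14, adjusted p = 0.00224), and no knockout value reached down to WT. Cdkn2d and Cdkn2c, which encode inhibitors of CDK4 and CDK6, fell. Cdkn2d was at 78.1, 76.4 and 78.7 CPM in WT and 38.0, 40.7 and 40.6 CPM in knockout (-0.97 ± 0.06, adjusted p = 1.02e-05) and Cdkn2c at 25.1, 28.2 and 25.1 CPM in WT and 17.6, 18.5 and 18.1 CPM in knockout (-0.53 ± 0.08). Cdkn1b, which encodes p27, was at 82.9, 76.9 and 83.6 CPM in WT and 91.0, 82.2 and 87.2 CPM in knockout with overlapping groups (0.10 ± 0.06, adjusted p = 0.227). Ccna2, cyclin A2, the S and G2 partner of CDK2, fell (339, 349 and 324 CPM in WT and 264, 254 and 251 CPM in knockout, -0.40 ± 0.06). Ccnd1, the third D-type cyclin, was at 0.0811, 0.131 and 0.0988 CPM in WT and 0.272, 0.630 and 0.538 CPM in knockout. It passed as higher and is among the 3 genes of this list that rose, but its level in WT was too low for a fold. Genes that are low in every library are absent from the table, and Ccnd1 is present through its knockout libraries alone. Its call as higher is conditioned on that selection.

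Mitosis genes, the programme that follows S phase, were nearly all lower. Of 26 mitosis genes 23 fell (88.5%, against 24.5% of all tested genes) and 0 rose (against 23.1%) by edgeR. The counts were 23 and 0 also by DESeq2 and by limma-voom, and 24 of these genes were lower and 0 higher at an unadjusted p under 0.05. Their median log2 fold change was -0.36, against 20 and 7 of 53 members with a median of -0.13. Ccnb2, a mitotic cyclin, was at 103, 95.3 and 96.4 CPM in WT and 51.0, 48.5 and 53.8 CPM in knockout (-0.94 ± 0.06), and Ube2c, the ubiquitin carrier of the anaphase-promoting complex, at 173, 175 and 172 CPM in WT and 102, 92.8 and 98.6 CPM in knockout (-0.83 ± 0.06). Mki67, the proliferation antigen Ki-67, was at 1072, 961 and 1155 CPM in WT and 1272, 1024 and 1149 CPM in knockout and was not called (0.11 ± 0.10, adjusted p = 0.359). The difference between the lists was not tested. The plot of members beside related lists shows the mitosis genes almost all below 0 and the members on both sides of it.

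**Figure D4:**
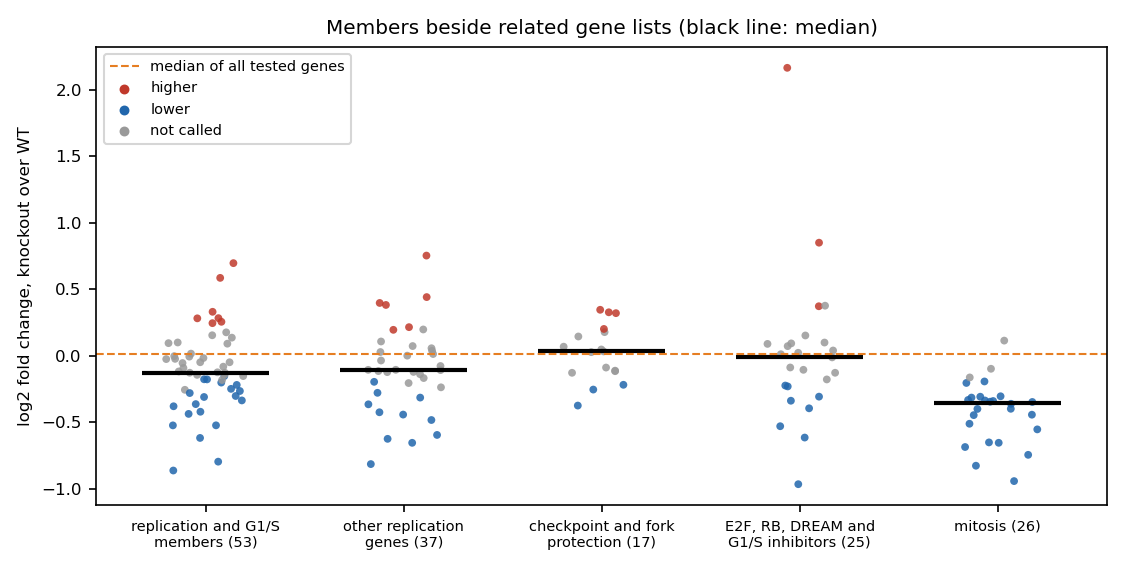
Log2 fold change of knockout over WT (vertical axis) for each tested gene of 5 lists, coloured by call, with the list's median as a black line and the median of all 15361 tested genes as a dashed line. The medians are -0.13 for the members, -0.11 for other replication genes, 0.031 for checkpoint and fork protection, -0.014 for E2F, RB, DREAM and inhibitor genes and -0.36 for mitosis genes; points are spread sideways only to be seen.

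By total exon length, the shortest members all fell, while each longer range held members that did not pass. All 6 members among the shortest 20% of tested genes (total exon length up to 2.03 kb: Gmnn, Gins1, Gins4, Pold2, Rfc4 and Rpa3) fell, while 25.3% of all genes in that range did. Of the 8 among the longest 20% (from 7.04 kb), 3 rose (Cdk6, Ccnd2 and Pole) and 1 fell (Ccnd3), where 32.1% of all genes rose and 19.8% fell. In the 3 ranges between, 2 of 11, 5 of 16 and 6 of 12 members fell, from shorter to longer, and 1, 3 and 0 rose. Of all genes in these ranges, 28.5%, 26.2% and 23.9% fell and 20.6%, 22.8% and 24.7% rose. The members' medians in the 5 ranges were -0.38, -0.057, -0.15, -0.18 and -0.018, with no steady order. Spearman's rho of length and log2 fold change was 0.35 across the 53 members and 0.082 across 15056 tested genes with a length, as a description across genes that share the same 6 libraries. The median of all genes went from -0.048 in the shortest 20% to 0.074 in the longest. The part of length in the members' changes was not tested.

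**Figure D5:**
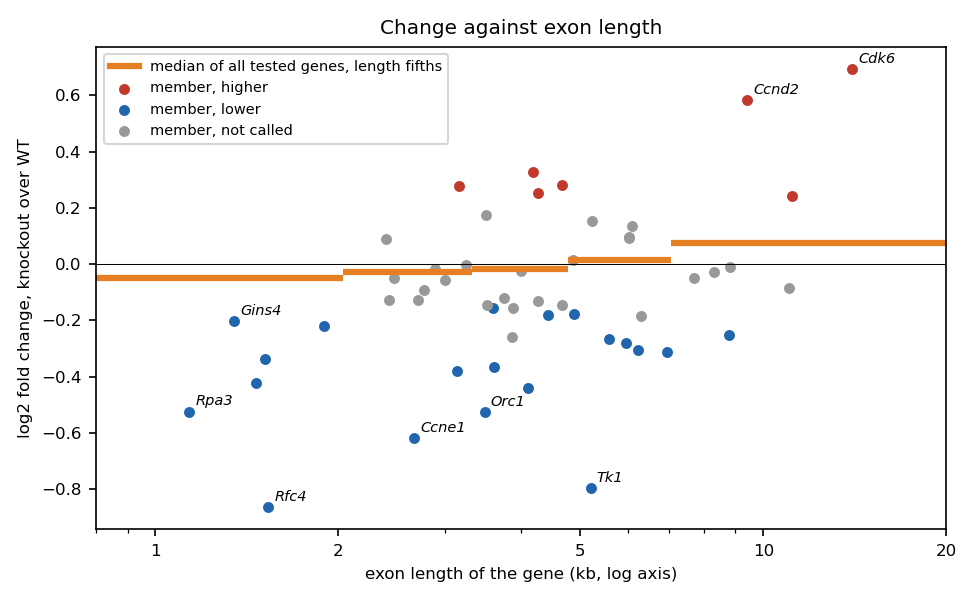
Log2 fold change of knockout over WT (vertical axis) against total exon length (kilobases, log axis) for the 53 members, coloured by call, with the median of all tested genes in 5 ranges of length as thick lines. The members shorter than 2.03 kb lie at or below -0.20, and the all-gene medians stay between -0.048 and 0.074.

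The knockout libraries did not move equally. Against the WT mean, the median member stood at -0.045 in knockout replicate 1, -0.13 in replicate 2 and -0.15 in replicate 3 on the log2 scale, and at -0.0049, 0.046 and -0.042 in the WT libraries. Knockout replicates 2 and 3, the lowest, and WT replicate 2, the highest, are the libraries with raised B cell markers. Without these 3, where the lone knockout library is assumed to vary like WT, the median member was at -0.031, and 15 of the 27 calls were made there too, among them Tk1 (-0.68), Rfc4 (-0.85), Ccne1 (-0.56), Cdk6 (0.80) and Ccnd2 (0.47). The other 12 did not pass. Among the helicase genes these were Mcm2 (-0.17, adjusted p = 0.181), Mcm4 (-0.13, adjusted p = 0.266), Mcm7 (-0.13, adjusted p = 0.262), Gins1 (-0.32, adjusted p = 0.0703) and Gins4 (-0.089, adjusted p = 0.459). Among the polymerase and RPA genes they were Prim2 (-0.25, adjusted p = 0.0616), Pold2 (-0.21, adjusted p = 0.144), Pole (0.23, adjusted p = 0.0517) and Rpa1 (-0.15, adjusted p = 0.179), and among the G1/S regulators Ccnd3 (-0.17, adjusted p = 0.193), E2f1 (0.25, adjusted p = 0.0722) and E2f2 (-0.091, adjusted p = 0.372). In their place Cdc6 (0.29, adjusted p = 0.0183), Tyms (0.29, adjusted p = 0.0272) and Ccne2 (0.38, adjusted p = 0.00862) passed as higher. Of the genes named here from outside the members, Ccnd1 and Fanci lost their call, as did genes of the related lists that are not named. Between libraries of a group the members' coefficient of variation had a median of 4.72% in WT and 5.38% in knockout.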

How the data were processed

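Messenger RNA of 3 WT and 3 knockout Th17 cultures was read from a table of expected counts as deposited: whole-number estimates of reads for each gene, whose totals differ between libraries. Per the submitters' processing notes Salmon, DESeq2 and DESeq were used, without versions or roles. The authors' genome build and annotation: not given in the sources used here. Each of the 15452 rows held at least 10 counts in at least 3 libraries. Symbols were matched on the unversioned ID (15138 matched), and exon lengths are from GENCODE M21. A count of 0 would allow 3 counts, which covers counting error only.

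Counts were used without rounding in edgeR 4.0.16 (R 4.3.3, limma 3.58.1): filterByExpr (15361 genes left), TMM, quasi-likelihood fit (robust) on genotype alone, F test, Benjamini-Hochberg adjustment over all genes, threshold 0.05. CPM (counts per 1e6) are TMM-scaled, except marker sums, which use library totals. Further markers chosen at the start are not reported here. SE is the log2 fold change divided by the root of F. Ratios used log2(CPM + 1) and exact permutation over 20 assignments. The fit was tested on simulated data. Alternatives included DESeq2 1.42.0, limma-voom, other scalings and filters, a 1.2-fold test and each library left out. Promoters are RefSeq's, GRCm38.p6; no build is stated for the counts, so gene positions are given only for printed promoters. Figures used matplotlib 3.10.9.

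The members and lists were chosen with earlier results of these data known. All members may be named. Values in every library are given by rule for up to 3 members per role with the smallest p, the member with the largest p and a fixed set of cyclins, kinases, E2F genes, Rb1 and Pcna. From each related list, up to 6 called genes with the smallest p, and Cdkn1a, Cdkn1b, Mki67 and Ccnb2, could be named.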

Additional observations from a re-analysis of the deposited data

How the results depend on the processing

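All 53 members kept their call and direction by DESeq2, limma-voom, RLE factors, no filter, no robust dispersion and without the 27 entries raised in knockout replicate 2. Of the 27 calls, 3 higher and 10 lower held in every alternative except the 1.2-fold test. Against 1.2-fold, 2 members were higher and 7 lower, with 2 and 6 of the other replication genes, 4 lower E2F, RB, DREAM and inhibitor genes, 0 higher and 0 lower checkpoint genes by edgeR (0 and 1 at an unadjusted p under 0.05), 12 lower mitosis genes, and 2125 higher and 1856 lower genes in all, since this test asks for more. Without the 3 libraries with raised B cell markers, which leaves fewer samples, 10 members, 7 other replication, 5 E2F, RB, DREAM and inhibitor, 1 checkpoint and 14 mitosis genes fell, where 18.6% of all genes did (18.9% of members), and uncalled genes changed sign: Orc6 0.10, Mcm5 0.10, Mcm10 0.0096, Pola1 0.11, Pola2 0.080, Pole2 0.10, Rpa2 0.10, Rrm1 0.021, Cdk4 0.085 and Rb1 -0.0053. With upper-quartile factors 5 E2F, RB, DREAM and inhibitor genes and 1 checkpoint gene fell, and uncalled members changed sign: Orc6 0.029, Mcm5 0.055, Mcm10 0.028, Pola1 0.070, Pola2 0.052, Pole2 0.061, Rpa2 0.023 and Cdk4 0.075. Summed levels on the log2 scale became 0.085 for all members, -0.068 for the MCM ring, -0.026 for firing, 0.074 for polymerases, -0.17 for RPA, -0.051 for Okazaki enzymes, -0.038 for nucleotide supply, 0.39 for cyclins and kinases and 0.25 for E2F, RB and UHRF1. By library totals 5 E2F, RB, DREAM and inhibitor genes fell, the sum of all members was 0.051, and the signs of Mcm5 0.021, Pola1 0.035, Pola2 0.019, Pole2 0.028 and Cdk4 0.040 changed. With at least 50 counts in 3 libraries those of Mcm5 0.020, Pola1 0.036, Pola2 0.018, Pole2 0.026 and Cdk4 0.041 changed. The E2F motif share over the 100 bases before the start was 7.69%. The cause of these changes was not tested. Leaving out each library in turn gave -0.063 to 0.059 for Cdk4, -0.026 to 0.11 for Cdt1/Gmnn ratio, 5 to 9 for E2F, RB and DREAM factors and G1/S inhibitors lower, -0.090 to 0.043 for Mcm5, -0.12 to 0.022 for Orc6, -0.058 to 0.026 for Pola1, -0.070 to 0.016 for Pola2, -0.021 to 0.074 for Pold1, -0.072 to 0.037 for Pole2, -0.056 to 0.036 for Rrm2/Rrm1 ratio, 4 to 9 for members higher. The labels do not say whether same-numbered WT and knockout libraries are paired. Deviations of same-numbered libraries from their group means correlated at -0.10, 0.093 and -0.26. WT replicate 2 and knockout replicate 2 correlated best with each other, while the libraries of the other numbers did not. With 3 libraries per group these values can neither show nor exclude pairing. With the replicate number as a block, 7 members rose and 19 fell, and over all genes 3473 and 3745; Mcm4 and Mcm7 were no longer called (adjusted p = 0.0792 and 0.0509) and Orc2 was (adjusted p = 0.0295). A count of 3 stood for 0.0742 to 0.0888 CPM, far below every member.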
